A study of Homo sapiens with 24 samples.

Results

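Genes of the amino acid branch of the ATF4 response were followed in H1 cells, a human embryonic stem cell line, over 72 h of neural induction with dorsomorphin. The set is 35 genes given by symbol: 6 regulators of the response, 6 enzymes of asparagine, serine and folate metabolism, 6 amino acid transporters, 3 genes of endoplasmic reticulum (ER) stress and 14 cytosolic tRNA synthetases. Each gene was read from the bead array row annotated to its symbol, and where a gene had several rows, from the row with the highest mean over all arrays. Of the 35 symbols, 33 had a row and 31 were tested, having 4 or more arrays over background, among 17760 named genes of which 10215 were tested. No row was annotated to HERPUD1 or CARS1. The rows of CHAC1 and SLC7A11 were too dim to test. The genes were chosen with earlier results of these data known, but the rule itself uses no difference between times.

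ATF4 is a transcription factor whose protein is made when kinases that sense stress phosphorylate the translation factor eIF2alpha, as happens when amino acids run short or unfolded proteins build up in the ER. ATF4 pairs with C/EBP proteins on C/EBP-ATF response elements, and its known targets make amino acids (ASNS), import them (SLC7A5 with SLC3A2) and load them onto tRNAs (many cytosolic tRNA synthetases). Because ATF4 is controlled largely at translation, its own mRNA is only one of the places where the response can be read. The ER chaperone HSPA5 and the transcription factor XBP1 are classic targets of the other arms of the unfolded protein response.

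The study measured total RNA on Illumina HumanHT-12 v4 bead arrays at 0, 12, 24, 36, 48 and 72 h of induction, with 4 arrays at each time. Per the labels, the cells were H1 at every time, grown to confluency on Matrigel in mTeSR and then switched to DMEM/F12 with KSR, glutamine, nonessential amino acids and beta-mercaptoethanol, which was renewed daily, with dorsomorphin (compound C, a small molecule that inhibits BMP receptor kinases and AMPK). No sample after 0 h was left untreated, so time in culture, the change of medium and the compound cannot be told apart. The labels do not say that the 4 arrays of a time came from separate cultures, so p-values measure only array-to-array spread, part or all of which may be technical. In these bulk samples, fewer cells of a type and less RNA per cell cannot be told apart.

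All levels are the deposited log2 signals. A row counted as above background over 7.1, the 99th percentile of the values of 387 olfactory receptor rows on the 24 arrays, whose median was 6.41. Arrays of the same time correlated at 0.975 to 0.992 (median 0.987) over the tested genes, and 9251 to 9474 named genes per array were above background. Of 6 pluripotency markers, 4 fell by 72 h (POU5F1, at -1.81, with NANOG, DPPA4 and L1TD1) and 2 rose (SOX2 by 1.13 and LIN28A by 0.31). At the same time 4 of the 5 tested neural ectoderm markers (PAX6, SOX21, OTX2 and HESX1) rose. Of all tested genes, 18.5% rose and 17.4% fell. LHX2 did not pass the test (0.85 ± 0.41, limma adjusted p = 0.107), and SOX1, the other neural ectoderm marker, was not above background on any array. None of the 3 primitive streak markers with a row or the 4 endoderm markers was above background on any array. Among markers of other cells, KRT7 of the trophoblast list was above background on 6 arrays and COL1A1 of the fibroblast list on 24. COL1A1 was higher than at 0 h by 0.87, 0.93 and 1.00 at 24, 36 and 48 h, and its change at 72 h was -1.18 against 48 h and -0.19 against 0 h (not past the test). The other 3 fibroblast markers were not above background on any array, and the part of such cells in the results was not tested. The deviations of arrays from the mean of their time had a main axis that held 27.0% of their spread. At each time the 1 array lowest on it was picked: replicate 2 at 0, 24 and 72 h, and replicate 4 at 12, 36 and 48 h. The deviations of these 6 arrays, said below to deviate alike, correlated at 0.257 to 0.584 (median 0.431) between times. The choice on a shared axis itself favours such correlation. Results that rest on them are given with and without them. Leaving out arrays picked as extreme narrows the spread that remains, so p-values without them can be too small. Of these 6, the array at 0 h was the highest of its group for 11 of the 31 tested genes and the lowest for 0. The array at 72 h was the lowest for 15 and the highest for 6. Their median differences from the mean of the rest of the group were 0.14 and -0.11, and both add to a fall from 0 to 72 h. The array at 24 h was the highest for 12 genes and the lowest for 6, and that at 12 h for 9 and 7. The array at 36 h was the lowest for 19 and the highest for 5, and that at 48 h for 13 and 7.

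The letters of the known elements were looked up in the promoters of the set, because they are the sequences through which ATF4 and the unfolded protein response act on their targets. Promoter windows of RefSeq (GRCh38.p14) run from 250 bases before a gene's start to 50 after it, 300 bases in all, and 29 of the 35 genes were matched, with 45 windows. The core of the C/EBP-ATF response element was searched as TGATGNAA on both strands. It was present in 13 of the 29 genes, against 4.46% of the 27305 genes searched, and in 3.62% of all 35116 windows. The set was chosen as genes of the ATF4 response, so a share above that of all genes comes with the choice. A 30-base window around the match is printed for each of the 13 genes, 5′ to 3′ on the gene's own strand, with the matched letters in capitals; where these read TTNCATCA, the element lies on the opposite strand.
AARS1: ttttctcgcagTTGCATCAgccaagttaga
ASNS: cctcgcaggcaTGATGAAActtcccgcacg
CARS1: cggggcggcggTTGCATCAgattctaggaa
CHAC1: ctcccctgccgTTGCATCActcctgccagg
GARS1: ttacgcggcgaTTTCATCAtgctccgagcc
HERPUD1: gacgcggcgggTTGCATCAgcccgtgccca
IARS1: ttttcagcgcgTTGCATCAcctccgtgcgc
MARS1: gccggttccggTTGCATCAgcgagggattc
NARS1: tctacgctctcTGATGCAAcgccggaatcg
SLC1A5: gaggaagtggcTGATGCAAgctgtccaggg
SLC3A2: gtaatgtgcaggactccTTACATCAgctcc
SLC7A1: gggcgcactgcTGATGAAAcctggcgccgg
TARS1: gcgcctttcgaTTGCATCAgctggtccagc
These windows come from AARS1 (chr16:70289457-70289756, minus strand), ASNS (chr7:97872359-97872658, minus), CARS1 (chr11:3057374-3057673, minus), CHAC1 (chr15:40953221-40953520, plus), GARS1 (chr7:30594628-30594927, plus), HERPUD1 (chr16:56931892-56932191, plus), IARS1 (chr9:92293648-92293947, minus), MARS1 (chr12:57487818-57488117, plus), NARS1 (chr18:57621787-57622086, minus), SLC1A5 (chr19:46784765-46785064, minus), SLC3A2 (chr11:62881449-62881748, plus), SLC7A1 (chr13:29595639-29595938, minus) and TARS1 (chr5:33440715-33441014, plus). In ASNS the match began 68 bases upstream of the start, in CHAC1 209 bases upstream and in MARS1 4 bases upstream. In NARS1, SLC3A2, SLC7A1 and TARS1 it lay downstream, beginning at base 15, 38, 8 and 3 of the transcript. Of the genes in the set that fell by 72 h, 9 of the 16 with a promoter window held the core. Of the 10 tested genes with a window that had not fallen, IARS1 was the 1 that held it. Of the genes higher at 12 and 36 h than at 24 and 48 h, 6 of the 10 with a window held the core. Among the tested genes with a window that were not higher in this way, 4 of 16 held it. SLC7A5, TRIB3, CEBPB, WARS1 and PSAT1 held no match in these 300 bases. A match is a description of the letters, and no test was made of its relation to the levels.

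The 250 bases before the start of ASNS, the best known target of the element, are shown with the core in capitals, and those before HSPA5 with the ER stress response element in capitals. The ER stress response element was searched as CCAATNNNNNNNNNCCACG on both strands, is in 0.0769% of all windows, and overlaps no C/EBP-ATF core.
ASNS: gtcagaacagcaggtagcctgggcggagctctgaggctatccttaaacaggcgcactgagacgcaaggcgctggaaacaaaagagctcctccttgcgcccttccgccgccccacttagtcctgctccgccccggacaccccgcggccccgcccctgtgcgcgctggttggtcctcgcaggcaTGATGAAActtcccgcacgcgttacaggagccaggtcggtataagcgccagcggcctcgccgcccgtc
HSPA5: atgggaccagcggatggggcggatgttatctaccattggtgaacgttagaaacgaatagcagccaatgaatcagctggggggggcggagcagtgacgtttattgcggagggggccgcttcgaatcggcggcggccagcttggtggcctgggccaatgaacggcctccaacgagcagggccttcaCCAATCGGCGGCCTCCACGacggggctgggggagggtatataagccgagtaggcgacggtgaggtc
These are chr7:97872409-97872658 and chr9:125241344-125241593, both on the minus strand. The same element was found in XBP1 (chr22:28800520-28800819, minus), and a shorter form of it, ATTGGNCCACG, in HERPUD1; this form was added after the other motifs had been searched, and is in 0.0541% of windows.
XBP1: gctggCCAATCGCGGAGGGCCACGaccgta
HERPUD1: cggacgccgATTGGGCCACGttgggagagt

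At 72 h, mRNA of much of the set was below its level at 0 h, and no gene passed the test as higher. With limma, 20 of the 31 tested genes had fallen (adjusted p under 0.05 over all tested genes) and 0 had risen, where 17.4% of all tested genes had fallen and 18.5% had risen. The median log2 change was -0.40 over the 31 genes and 0.01 over all tested genes, and 28 of the 31 were below 0. At an unadjusted p under 0.05, limma gave 21 genes below 0 and 0 above it. By role, the genes that fell were 3 of 5 tested regulators, 4 of 6 enzymes, 4 of 5 transporters and 9 of 13 synthetases, and neither of the ER stress genes with a row passed the test. Of the 20, all but AARS1, NARS1 and VARS1 had 4 arrays at 72 h that were all below the 4 at 0 h; 15.2% of all tested genes were below in this way. The changes ran between -1.53 for SLC7A5 and -0.30 for ATF4.

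**Figure D1:**
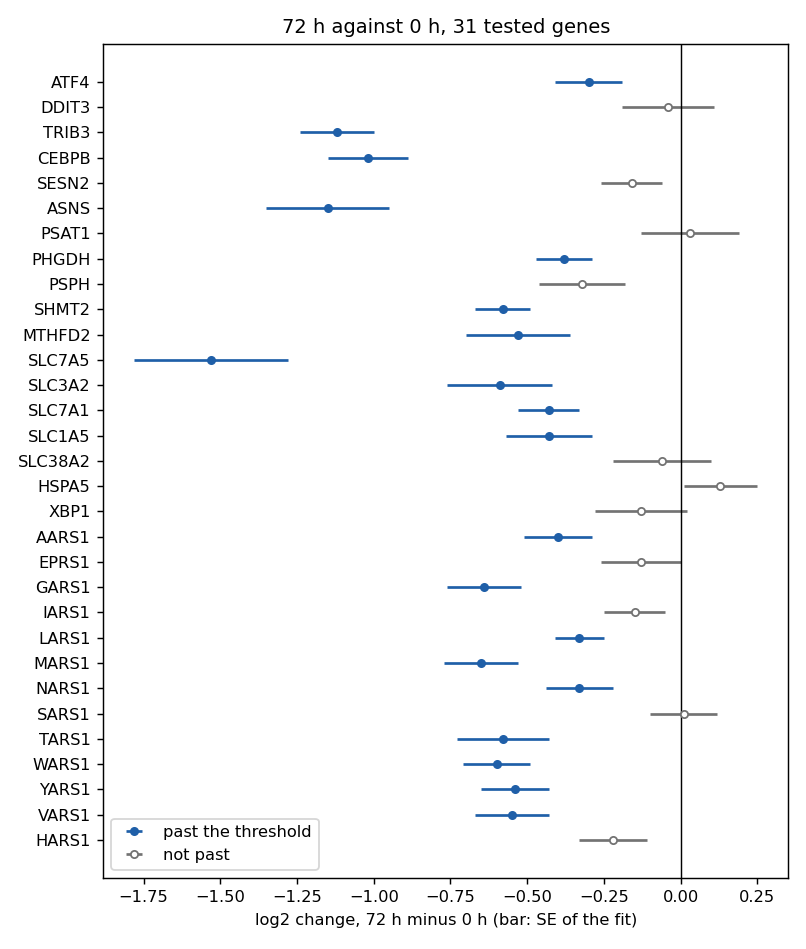
Log2 change at 72 h minus 0 h for each of the 31 tested genes, in the order of their roles, with bars for the standard error of the fit and filled points for adjusted p below 0.05 (limma). SLC7A5, ASNS, TRIB3 and CEBPB lie at -1.02 or lower, and the ER stress genes HSPA5 and XBP1 lie at 0.13 and -0.13.

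The regulators that fell did so in steps, and none of the 5 tested passed the test at 12 h (0 at adjusted p under 0.05 by limma, 1, TRIB3, at an unadjusted p under 0.05). TRIB3, a pseudokinase that ATF4 and DDIT3 induce and that holds ATF4 back in turn, had 8.54, 8.79, 8.07 and 8.47 at 0 h, then 7.99, 8.28, 8.17 and 7.99 at 12 h, then 7.92, 8.01, 7.95 and 8.22 at 24 h. TRIB3 then had 7.40, 7.40, 7.67 and 7.31 at 36 h, 7.68, 7.65, 7.53 and 7.33 at 48 h, and finally 7.21, 7.39, 7.34 and 7.44 at 72 h. All 4 arrays at 36, 48 and 72 h were below all 4 at 0 h, while 24 h overlapped 0 h. TRIB3 had fallen by 0.44 ± 0.12 at 24 h (log2 ± SE of the fit, limma adjusted p = 0.0256), by 1.02 ± 0.12 at 36 h (1.86e-06) and by 1.12 ± 0.12 at 72 h (9.52e-08, 2.18-fold lower). CEBPB, a basic leucine zipper protein that partners ATF4, had 10.46, 10.35, 10.16 and 10.31 at 0 h, then 10.37, 10.29, 10.37 and 10.19 at 12 h, then 10.23, 10.22, 10.24 and 10.41 at 24 h. CEBPB then had 9.79, 9.91, 10.08 and 9.50 at 36 h, 9.69, 9.99, 9.93 and 9.44 at 48 h, and finally 9.48, 8.91, 9.29 and 9.51 at 72 h. Its arrays at 0, 12 and 24 h lay in the same range, and those at 36, 48 and 72 h lay below it. CEBPB was 0.45 ± 0.13 log2 units lower at 36 h than at 24 h (adjusted p = 0.0232), and had fallen by 1.02 ± 0.13 at 72 h against 0 h (1.31e-06, 2.02-fold lower).

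ATF4 mRNA itself had a smaller estimate than TRIB3 or CEBPB. Its row had 13.15, 13.41, 13.42 and 13.02 at 0 h, then 13.37, 13.55, 13.00 and 13.18 at 12 h, then 13.06, 13.16, 13.25 and 13.28 at 24 h. ATF4 then had 13.27, 13.14, 13.19 and 13.12 at 36 h, 12.95, 13.14, 12.85 and 13.01 at 48 h, and finally 12.91, 13.02, 12.90 and 12.98 at 72 h. The 4 arrays at 72 h were below the 4 at 0 h by the narrowest margin, the nearest of both times being 13.02, and ATF4 had fallen by 0.30 ± 0.11 (adjusted p = 0.0295). Without the 6 arrays that deviate alike the fall was 0.27 with adjusted p = 0.128, and it also missed the threshold without any 1 of 4 arrays, the second and the third at 0 h and the first and the third at 72 h (-0.28 to -0.24). The other rows of ATF4 gave changes of -0.18 and -0.08 at 72 h, so the size of this fall differed between probes. DDIT3, the stress factor also called CHOP, was below background on all 4 arrays at 72 h and all 4 at 0 h, with changes too near background to size. At 24 h DDIT3 exceeded background with 7.14, 7.31 and 7.74 on 3 of 4 arrays, against none at 0 h. The difference between these times missed the threshold (limma adjusted p = 0.082). SESN2, which senses leucine for mTORC1 and is also a p53 target, was close to background throughout and its change at 72 h was -0.16 ± 0.10 (adjusted p = 0.227). CHAC1, which degrades glutathione, was above background on 2 of 24 arrays, replicates 2 and 4 at 12 h with 7.28 and 7.18.

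Among the enzymes, the ATF4 target ASNS, which makes asparagine, moved most. ASNS had 11.67, 12.01, 11.54 and 11.56 at 0 h, then 12.44, 12.33, 12.40 and 12.28 at 12 h, then 12.18, 11.93, 12.15 and 12.09 at 24 h. ASNS then had 11.89, 12.11, 11.91 and 11.04 at 36 h, 11.50, 11.59, 11.44 and 10.51 at 48 h, and finally 10.59, 10.17, 10.90 and 10.54 at 72 h. All 4 arrays at 12 h were above all 4 at 0 h, and all 4 at 72 h were below them. At 72 h ASNS had fallen by 1.15 ± 0.20 (adjusted p = 8.47e-05, 2.22-fold lower), and its second row gave -0.88. At 12 h it was 0.66 ± 0.20 higher than at 0 h with adjusted p = 0.0502, just short of the threshold, and its second row gave 0.58. Without the 6 arrays that deviate alike, the difference at 12 h was 0.80 ± 0.10 (limma adjusted p = 0.000102). Those arrays were picked from these data as extreme, which can make this p-value too small. In the arrays at 36 and 48 h, replicate 4 was the lowest by a wide margin, with 11.04 and 10.51.

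The enzymes of serine synthesis differed in their course. PSAT1, the transaminase of the pathway, had 11.79, 12.66, 12.09 and 11.68 at 0 h, then 12.69, 12.80, 12.35 and 12.54 at 12 h, then 11.66, 12.06, 11.88 and 11.56 at 24 h. PSAT1 then had 12.21, 12.11, 12.24 and 11.93 at 36 h, 11.82, 11.54, 11.55 and 11.71 at 48 h, and finally 12.11, 12.33, 12.00 and 11.92 at 72 h. PSAT1 was higher at 12 h than at 0 h by 0.54 ± 0.16 (adjusted p = 0.0401, groups overlapping through replicate 2 at 0 h) and 0.80 ± 0.16 lower at 24 h than at 12 h (0.00544, no overlap). At 72 h it stood at 12.09 ± 0.18, against 12.06 ± 0.44 at 0 h (mean ± SD, n = 4 each), a difference of 0.03 ± 0.16. PHGDH, the first enzyme of the pathway, had 14.08, 14.16, 14.16 and 14.21 at 0 h, then 14.24, 13.98, 14.35 and 14.37 at 12 h, then 14.19, 14.24, 14.12 and 14.26 at 24 h. PHGDH then had 14.01, 14.04, 14.17 and 14.05 at 36 h, 13.98, 13.93, 13.99 and 13.91 at 48 h, and finally 13.73, 13.62, 14.05 and 13.69 at 72 h. Its arrays lay between 13.91 and 14.37 up to 48 h, and PHGDH had fallen by 0.38 ± 0.09 at 72 h (adjusted p = 0.00215), with no overlap. PSPH, the phosphatase that releases serine, lay between 7.45 and 7.86 on the 4 arrays at 72 h, against 7.75 to 8.17 at 0 h, a change of -0.32 ± 0.14 that missed the threshold (adjusted p = 0.0778) and passed it without replicate 4 at 0 h (-0.41, 0.041).

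Both mitochondrial folate enzymes were lower at 72 h. SHMT2, which turns serine into glycine and a one-carbon unit, had 11.91, 12.28, 12.01 and 12.14 at 0 h, then 12.18, 12.37, 12.25 and 12.14 at 12 h, then 11.90, 12.04, 11.83 and 11.99 at 24 h. SHMT2 then had 11.99, 11.99, 11.93 and 11.68 at 36 h, 11.71, 11.65, 11.63 and 11.92 at 48 h, and finally 11.46, 11.46, 11.55 and 11.55 at 72 h. SHMT2 had fallen by 0.36 ± 0.09 at 48 h (adjusted p = 0.00703) and by 0.58 ± 0.09 at 72 h (2.92e-05), where all 4 arrays were below those at 0 h. MTHFD2, the next enzyme on that route, had 10.83, 10.87, 11.11 and 11.19 at 0 h, then 11.20, 11.12, 11.60 and 10.88 at 12 h, then 10.83, 10.45, 11.27 and 11.35 at 24 h. MTHFD2 then had 10.96, 11.10, 11.09 and 10.73 at 36 h, 10.57, 10.73, 10.79 and 10.53 at 48 h, and finally 10.56, 10.06, 10.64 and 10.61 at 72 h. The highest array at 72 h was below the lowest at 0 h, and MTHFD2 had fallen by 0.53 ± 0.17 (adjusted p = 0.0156). It missed the threshold with replicate 4 of 0 h left out (-0.47, adjusted p = 0.0527) or replicate 2 of 72 h (-0.39, 0.0817), the array that was lowest by far.

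The transporters held the largest change of the set at 72 h. SLC7A5, the light chain that carries leucine and other large neutral amino acids, had 11.76, 11.94, 12.13 and 11.38 at 0 h, then 12.88, 13.09, 12.06 and 12.38 at 12 h, then 11.77, 11.79, 11.89 and 11.45 at 24 h. SLC7A5 then had 12.29, 12.68, 12.70 and 11.43 at 36 h, 11.02, 11.17, 10.97 and 10.09 at 48 h, and finally 10.29, 9.99, 10.38 and 10.45 at 72 h. The 4 arrays at 48 h and the 4 at 72 h were below every array at 0 h, while 12 and 36 h held the highest arrays and also overlapped 0 h. SLC7A5 had fallen by 0.99 ± 0.25 at 48 h (adjusted p = 0.00534) and by 1.53 ± 0.25 at 72 h (3.3e-05, 2.88-fold lower). SLC3A2, the heavy chain that brings SLC7A5 to the membrane, had 8.36, 8.72, 8.32 and 8.14 at 0 h, then 8.83, 9.55, 8.75 and 9.02 at 12 h, then 8.23, 8.61, 8.24 and 8.23 at 24 h. SLC3A2 then had 8.46, 8.50, 9.05 and 8.03 at 36 h, 8.06, 7.92, 7.98 and 7.80 at 48 h, and finally 7.67, 8.02, 7.73 and 7.77 at 72 h. All 4 arrays at 12 h were above those at 0 h, by 0.65 ± 0.17 (adjusted p = 0.024), and all 4 at 72 h were below them, by 0.59 ± 0.17 (0.00878). At 12 h SLC7A5 was 0.80 ± 0.25 above 0 h with adjusted p = 0.0555, and without the 6 arrays 0.92 ± 0.21 above (0.0115). As for ASNS, the way these arrays were picked can make the second p-value too small.

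Of the carriers of other amino acids, none passed the test at 12 h and SLC7A1 and SLC1A5 fell later. SLC7A1, the carrier of arginine and lysine, had 10.68, 10.55, 10.57 and 10.45 at 0 h, then 10.69, 10.63, 10.42 and 10.49 at 12 h, then 10.34, 10.25, 10.15 and 10.14 at 24 h. SLC7A1 then had 10.40, 10.48, 10.34 and 9.98 at 36 h, 10.20, 10.30, 10.10 and 10.04 at 48 h, and finally 10.32, 9.94, 10.08 and 10.20 at 72 h. SLC7A1 had fallen by 0.34 ± 0.10 at 24 h (adjusted p = 0.0474) and by 0.43 ± 0.10 at 72 h (0.00231), with no overlap at either time. SLC1A5, the glutamine carrier, had 9.31, 9.73, 9.73 and 9.37 at 0 h, then 9.90, 10.08, 9.23 and 9.71 at 12 h, then 9.16, 9.34, 9.41 and 9.16 at 24 h. SLC1A5 then had 9.20, 9.43, 9.51 and 9.38 at 36 h, 8.96, 9.05, 8.90 and 9.18 at 48 h, and finally 9.18, 9.08, 8.93 and 9.24 at 72 h. It had fallen by 0.51 ± 0.14 at 48 h (adjusted p = 0.00831) and by 0.43 ± 0.14 at 72 h (0.0162). The call at 72 h was lost without the 6 arrays (-0.35, adjusted p = 0.115), and with replicate 2 or 3 of 0 h or replicate 3 of 72 h left out (-0.37 to -0.36). SLC38A2, a carrier of small neutral amino acids that is induced when they run short, did not pass the test: it averaged 11.02 ± 0.15 at 72 h, against 11.08 ± 0.39 at 0 h (SD, n = 4 each), a change of -0.06 ± 0.16. SLC7A11, the cystine carrier that also pairs with SLC3A2, was above background on 1 of 24 arrays, 8.03 at 12 h replicate 2.

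Neither of the ER stress genes passed the test at 72 h. HSPA5, the main chaperone of the ER lumen (also called BiP), had 9.44, 9.37, 9.63 and 9.22 at 0 h, then 9.29, 8.84, 9.08 and 9.03 at 12 h, then 9.41, 9.71, 9.53 and 9.33 at 24 h. HSPA5 then had 9.59, 9.35, 9.33 and 9.20 at 36 h, 9.17, 9.44, 9.36 and 9.43 at 48 h, and finally 9.51, 9.74, 9.29 and 9.64 at 72 h. The 4 arrays at 12 h were below the 4 at 24 h, and HSPA5 was 0.43 ± 0.12 higher at 24 h than at 12 h (adjusted p = 0.0291). At 72 h HSPA5 was 0.13 ± 0.12 above 0 h (adjusted p = 0.426). XBP1, a transcription factor activated by splicing, changed by -0.13 ± 0.15 at 72 h (adjusted p = 0.531). Whether its row tells the spliced from the unspliced form is not known here.

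Of the cytosolic tRNA synthetases, which load tRNAs with their amino acids, 9 of 13 had fallen at 72 h and none had risen by the test, where 17.4% of all tested genes had fallen and 18.5% had risen. MARS1, which loads methionine, had 10.82, 11.10, 11.08 and 11.10 at 0 h, then 11.26, 11.28, 11.43 and 11.28 at 12 h, then 10.70, 11.13, 11.22 and 10.85 at 24 h. MARS1 then had 10.96, 10.92, 11.39 and 10.86 at 36 h, 10.84, 10.65, 10.80 and 10.72 at 48 h, and finally 10.25, 10.26, 10.42 and 10.55 at 72 h. The 4 arrays of MARS1 at 72 h were below all others of the series. GARS1, which loads glycine, had 12.25, 12.61, 12.64 and 12.38 at 0 h, then 12.81, 12.87, 12.76 and 12.66 at 12 h, then 12.18, 12.30, 12.64 and 12.29 at 24 h. GARS1 then had 12.62, 12.57, 12.71 and 12.05 at 36 h, 12.13, 12.04, 12.15 and 11.99 at 48 h, and finally 11.86, 11.76, 11.86 and 11.82 at 72 h. Both genes had 4 arrays at 72 h below all 4 at 0 h, and fell by 0.65 ± 0.12 for MARS1 (adjusted p = 9.45e-05) and 0.64 ± 0.12 for GARS1 (0.000153). WARS1, which loads tryptophan, had 10.88, 11.08, 10.99 and 10.96 at 0 h, then 11.33, 11.44, 11.35 and 11.60 at 12 h, then 10.92, 11.00, 11.11 and 10.54 at 24 h. WARS1 then had 11.00, 11.11, 11.24 and 11.20 at 36 h, 10.69, 10.74, 10.86 and 10.71 at 48 h, and finally 10.16, 10.21, 10.62 and 10.51 at 72 h. WARS1 had no overlap with 0 h at 12 h, where it was higher by 0.45 ± 0.11 (adjusted p = 0.0169), or at 72 h, where it had fallen by 0.60 ± 0.11 (0.000162). Its second row gave 0.48 at 12 h and -0.73 at 72 h.

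YARS1 first passed the test as lower than at 0 h at 48 h, and TARS1 at 72 h. YARS1, which loads tyrosine, had 11.53, 11.89, 11.68 and 11.50 at 0 h, then 12.31, 11.98, 11.78 and 11.79 at 12 h, then 11.59, 11.62, 11.52 and 11.60 at 24 h. YARS1 then had 11.89, 12.01, 11.88 and 11.74 at 36 h, 11.36, 11.44, 11.40 and 11.16 at 48 h, and finally 11.09, 11.08, 11.18 and 11.08 at 72 h. The 4 arrays at 48 h and at 72 h were all below those at 0 h, and YARS1 had fallen by 0.31 ± 0.11 (adjusted p = 0.0366) and 0.54 ± 0.11 (0.000243). TARS1, which loads threonine, had 11.21, 11.76, 11.41 and 11.12 at 0 h, then 11.75, 11.62, 11.11 and 11.55 at 12 h, then 11.27, 11.91, 11.43 and 11.09 at 24 h. TARS1 then had 11.77, 11.86, 11.80 and 11.92 at 36 h, 11.18, 11.32, 11.30 and 11.51 at 48 h, and finally 10.64, 10.81, 10.68 and 11.05 at 72 h. All 4 arrays at 36 h, 11.77 to 11.92, were above all 4 at 0 h, by 0.46 ± 0.15 (adjusted p = 0.0398), and all 4 at 72 h were below them, by 0.58 ± 0.15 (0.00448).

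The other synthetases that fell were VARS1, AARS1, LARS1 and NARS1. VARS1, which loads valine, had 11.30, 11.07, 10.82 and 11.24 at 0 h, then 10.83, 11.13, 10.75 and 10.86 at 12 h, then 10.94, 11.23, 11.11 and 10.96 at 24 h. VARS1 then had 10.74, 10.66, 10.95 and 10.90 at 36 h, 10.80, 10.73, 10.77 and 10.68 at 48 h, and finally 10.42, 10.85, 10.28 and 10.69 at 72 h. VARS1 had fallen by 0.55 ± 0.12 at 72 h (adjusted p = 0.00075) although the groups overlapped. AARS1, which loads alanine, had 12.72, 12.93, 12.79 and 12.48 at 0 h, then 12.89, 12.70, 12.92 and 12.54 at 12 h, then 12.63, 12.51, 12.71 and 12.94 at 24 h. AARS1 then had 12.71, 12.78, 12.75 and 12.63 at 36 h, 12.28, 12.54, 12.31 and 12.44 at 48 h, and finally 12.23, 12.13, 12.54 and 12.41 at 72 h. It had fallen by 0.34 ± 0.11 at 48 h (adjusted p = 0.032) and by 0.40 ± 0.11 at 72 h (0.0063), with overlap at both times. Without the 6 arrays its fall at 72 h missed the threshold (-0.27, adjusted p = 0.0817). LARS1, which loads leucine, had 11.44, 11.53, 11.44 and 11.68 at 0 h, then 11.37, 11.53, 11.53 and 11.33 at 12 h, then 11.36, 11.53, 11.41 and 11.45 at 24 h. LARS1 then had 11.46, 11.53, 11.41 and 11.52 at 36 h, 11.24, 11.20, 11.29 and 11.39 at 48 h, and finally 11.27, 11.04, 11.31 and 11.17 at 72 h. It was lower at 72 h on every array, by 0.33 ± 0.08 (adjusted p = 0.00273). NARS1, which loads asparagine, had 11.76, 12.13, 12.25 and 11.93 at 0 h, then 12.06, 12.12, 12.20 and 12.24 at 12 h, then 12.03, 11.65, 12.01 and 12.22 at 24 h. NARS1 then had 12.29, 12.27, 12.22 and 12.18 at 36 h, 11.88, 11.96, 11.85 and 11.99 at 48 h, and finally 11.78, 11.52, 11.79 and 11.68 at 72 h. It had fallen by 0.33 ± 0.11 at 72 h (adjusted p = 0.019), with overlap. Without the 6 arrays this was -0.23 (adjusted p = 0.119), and with replicate 2 or 3 of 0 h or replicate 2 of 72 h left out it was -0.29 to -0.25, short of the threshold.

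The remaining synthetases did not pass the test at 72 h. HARS1, which loads histidine, varied over the 6 times by limma's F test. HARS1 had 10.42, 10.47, 10.80 and 10.33 at 0 h, then 10.67, 10.59, 10.50 and 10.65 at 12 h, then 10.26, 10.49, 10.09 and 10.39 at 24 h. HARS1 then had 10.65, 10.65, 10.46 and 10.45 at 36 h, 10.38, 10.46, 10.14 and 10.34 at 48 h, and finally 10.22, 10.36, 10.44 and 10.13 at 72 h. Its change at 72 h was -0.22 ± 0.11 (adjusted p = 0.117). EPRS1, which loads glutamate and proline, changed by -0.13 ± 0.13, IARS1, which loads isoleucine, by -0.15 ± 0.10, and SARS1, which loads serine, by 0.01 ± 0.11. By the F test, 23 of the 31 genes varied over the 6 times, where 48.9% of all tested genes did; the others were DDIT3, EPRS1, IARS1, PSPH, SARS1, SESN2, SLC38A2 and XBP1.

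**Figure D2:**
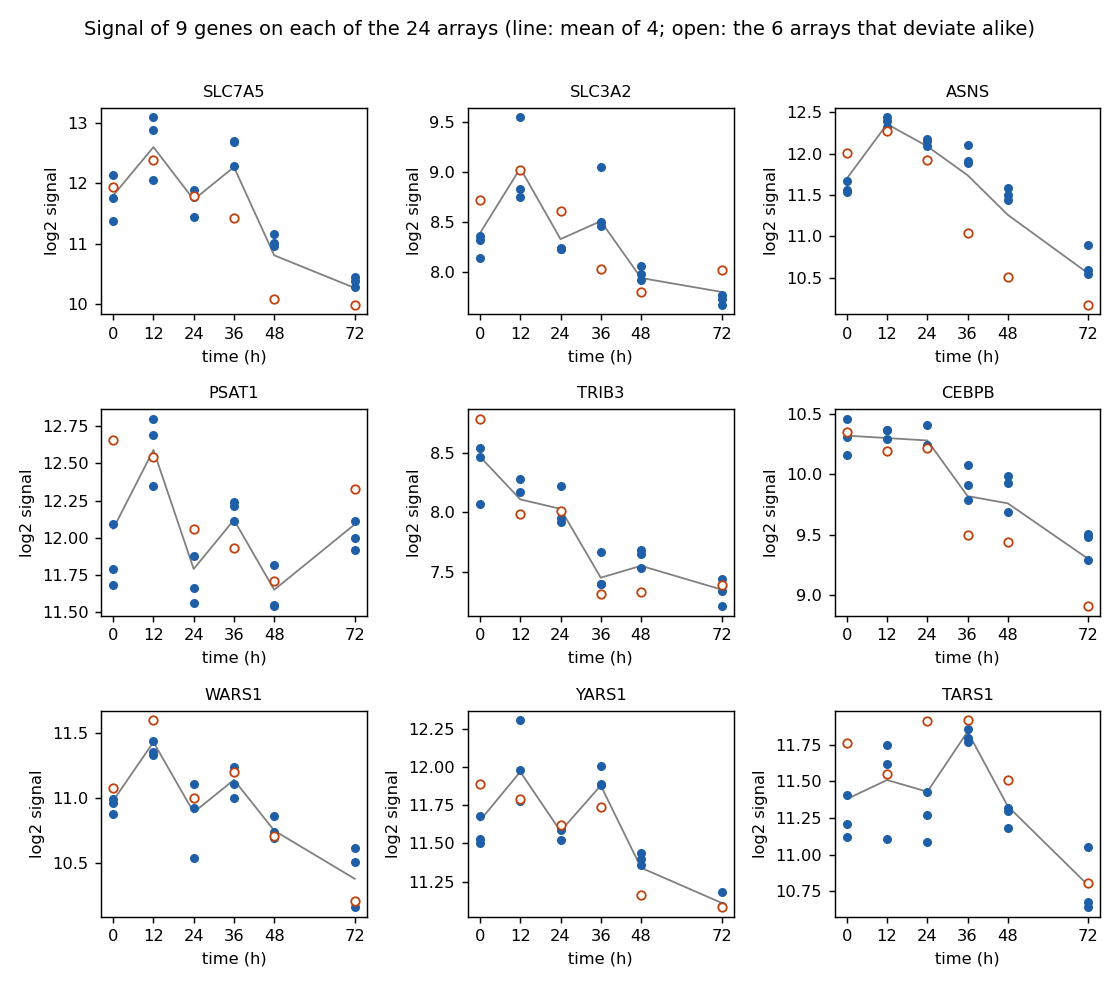
Log2 signal of 9 genes on each of the 24 arrays against time in hours, with a line through the mean of 4 arrays and open circles for the 6 arrays that deviate alike. SLC7A5, SLC3A2, PSAT1, WARS1 and YARS1 are high at 12 and 36 h and low at 24 and 48 h, ASNS peaks at 12 h, and TRIB3 and CEBPB step down.

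The path to 72 h was not even, and few genes differed from 0 h before 48 h. At 12 h, 3 of 31 genes were higher than at 0 h (PSAT1, SLC3A2 and WARS1) and 0 lower by limma (8 and 3 at an unadjusted p under 0.05), where 2.76% of tested genes were higher and 3.32% lower. These 3 calls are unsteady: the count was 0 (9 to 11 unadjusted) with replicate 1 or 4 of 0 h or replicate 4 of 12 h left out. It was 1 without replicate 2 of 12 h, and 5 without replicate 2 or 3 of 0 h, replicate 3 of 12 h or all of the 6 arrays. At 24 h, 0 were higher and 2 lower (SLC7A1 and TRIB3) by limma (1 and 3 at an unadjusted p under 0.05), against 3.97% and 3.24% of tested genes. The count fell to 0 (limma, 4 to 7 unadjusted) with replicate 1 or 2 of 0 h or replicate 3 of 24 h left out, and to 1 with replicate 3 of 0 h or replicate 1, 2 or 4 of 24 h left out. At 36 h, TARS1 was higher and CEBPB and TRIB3 lower, against 7.96% and 9.07%. Without the 6 arrays, 6 genes passed, among them ASNS, SLC7A5, TARS1 and YARS1 as higher, with the limit on such p-values given above. At 48 h, 11 of 31 were lower and 0 higher by limma (17 and 0 at an unadjusted p under 0.05), against 10.5% and 10.7%, and the median change of the set was -0.27, against 0.01 over all tested genes. Without the 6 arrays, replicate 2 of 0 h or replicate 3 of 48 h, 7 genes passed.

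**Figure D3:**
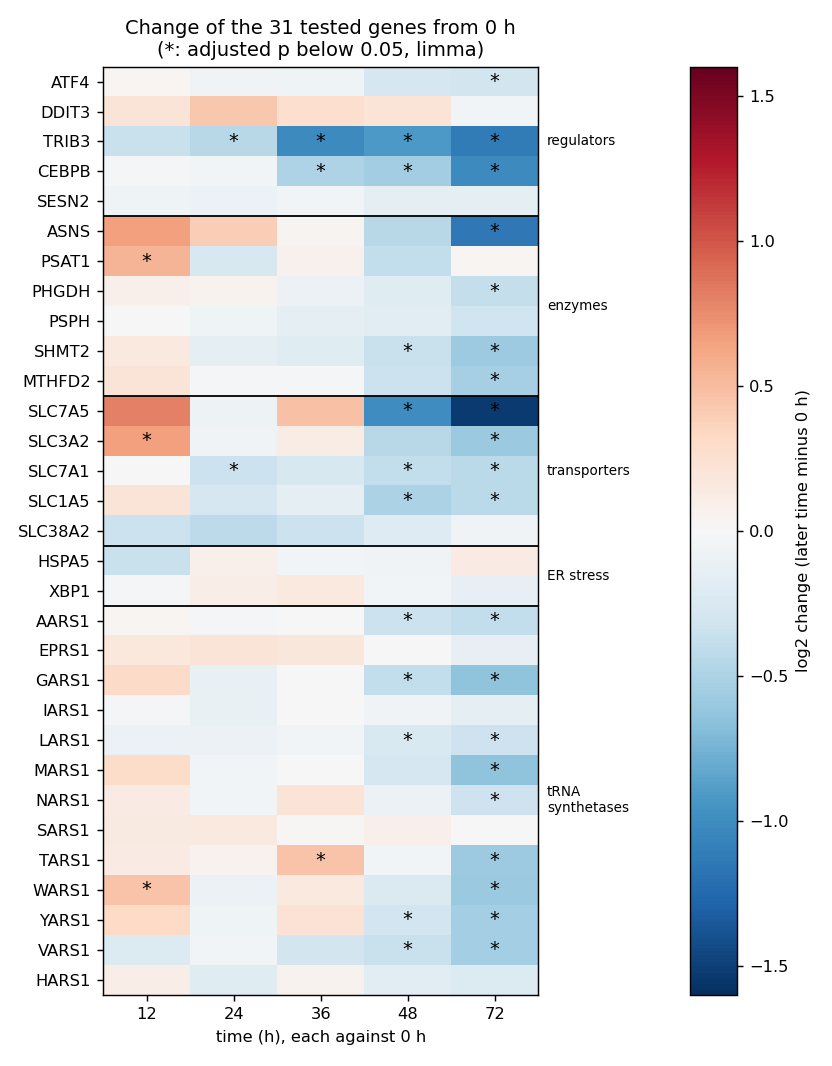
Log2 change from 0 h at 12, 24, 36, 48 and 72 h for the 31 tested genes grouped by role, with stars for adjusted p below 0.05 (limma). Red cells at 12 h in ASNS, PSAT1, SLC7A5, SLC3A2 and WARS1 give way to blue at 48 h, and at 72 h to blue in all of these but PSAT1, which is at 0.03, while TRIB3 is blue at every time.

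Between successive times, SLC7A5, GARS1, WARS1 and YARS1 were lower after 12 h and again after 36 h. At 24 h against 12 h, 7 genes were lower (GARS1, PSAT1, SLC1A5, SLC3A2, SLC7A5, WARS1 and YARS1) and HSPA5 higher, where 3.25% of tested genes were lower and 3.32% higher. The count of 8 was 2 to 4 with replicate 1, 2 or 4 of 12 h or replicate 1, 3 or 4 of 24 h left out. At 36 h against 24 h, CEBPB and TRIB3 were lower and 0 genes higher, against 7.46% and 6.90%, and at an unadjusted p under 0.05 limma gave 7 higher. The count of 2 was 1 with replicate 4 of 24 h or replicate 1 of 36 h left out and 6 without the 6 arrays. Those 6 genes included PSAT1, SLC7A5, TARS1 and YARS1 as higher at 36 h. At 48 h against 36 h, GARS1, SLC7A5, WARS1 and YARS1 were lower, by 0.41, 1.46, 0.39 and 0.54 log2 units, and 0 higher (limma, 0 also unadjusted), against 2.37% and 2.90% of tested genes. The count of 4 was 2 with replicate 1, 2 or 3 of 36 h or any 1 array of 48 h left out, and 7 without the 6 arrays. At 72 h against 48 h, ASNS, CEBPB, MARS1, TARS1 and WARS1 were lower and 0 higher (limma, 1 unadjusted), against 3.51% and 2.69% of tested genes. The count of 5 was 0 (limma, 7 to 8 unadjusted) with replicate 2 or 3 of 48 h or replicate 2 of 72 h left out. It was 1 without replicate 1 of either time, and 2 without replicate 4 of 48 h, replicate 3 of 72 h or the 6 arrays.

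Levels at 12 and 36 h were set against those at 24 and 48 h, since the labels say that medium was renewed daily and the first of these pairs falls between whole days. The mean of 12 and 36 h was higher than that of 24 and 48 h for 12 of the 31 genes and lower for 0 by limma (16 and 1 at an unadjusted p under 0.05), where 10.2% of tested genes were higher and 10.2% lower; the median difference was 0.20 over the set and 0.00 over all tested genes. The 12 were SLC7A5 (1.17 ± 0.18, adjusted p = 0.000136, 2.25-fold), SLC3A2, SLC1A5 and SLC7A1 among the transporters, PSAT1 and SHMT2 among the enzymes, and GARS1, HARS1, MARS1, NARS1, WARS1 and YARS1 among the synthetases. PSAT1 differed by 0.64 ± 0.11 (adjusted p = 0.000453), SLC3A2 by 0.64 ± 0.12 (0.000918), WARS1 by 0.46 ± 0.08 (0.000427) and YARS1 by 0.46 ± 0.07 (0.000218). The regulators showed no such difference that passed the test: TRIB3 differed by -0.01 ± 0.09, CEBPB by 0.04 ± 0.09 and ATF4 by 0.14 ± 0.07. The hour of the medium change relative to sampling is not given in the sources used here, and its part in the result was not tested.

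The 24 and 48 h samples are on average later than the 12 and 36 h samples, so the downward course also enters that difference. Each of the earlier times was therefore set against the mean of the times on either side, a comparison added after the data were seen. At 12 h against the mean of 0 and 24 h, 6 genes were higher (GARS1, PSAT1, SLC3A2, SLC7A5, WARS1 and YARS1) and HSPA5 lower by 0.39 ± 0.10 (adjusted p = 0.0242), where 2.64% of tested genes were higher and 2.96% lower. At 36 h against the mean of 24 and 48 h, 5 genes were higher (NARS1, SLC7A5, TARS1, WARS1 and YARS1) and TRIB3 lower by 0.34 ± 0.11 (0.0413), where 4.75% were higher and 4.97% lower. SLC7A5 was 0.84 ± 0.22 above its neighbours at 12 h (adjusted p = 0.0244) and 1.01 ± 0.22 above them at 36 h (0.00666). WARS1 and YARS1 passed at both times as well.

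**Figure D4:**
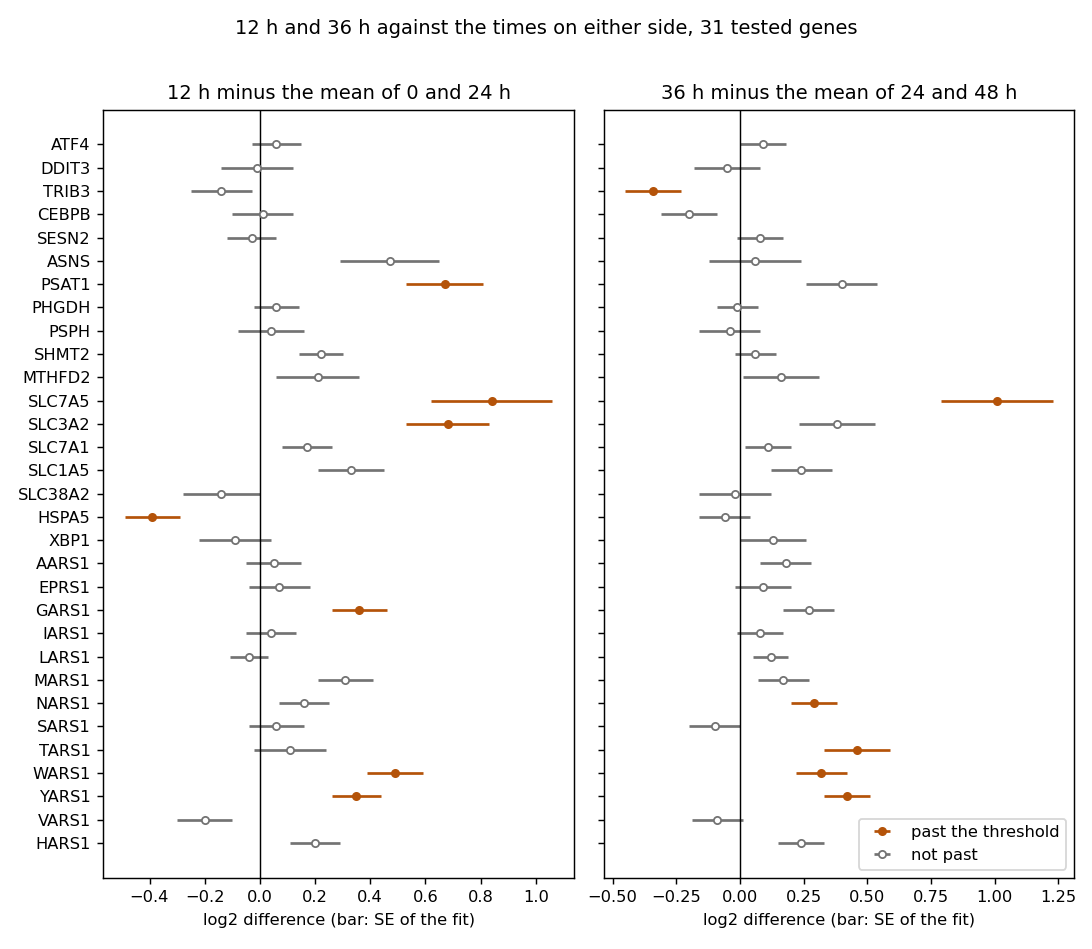
Log2 difference of 12 h from the mean of 0 and 24 h (left) and of 36 h from the mean of 24 and 48 h (right) for the 31 tested genes, with bars for the standard error of the fit and filled points for adjusted p below 0.05 (limma). SLC7A5, WARS1 and YARS1 lie to the right of 0 in both panels and past the threshold, and HSPA5 on the left and TRIB3 on the right lie below 0. Both panels use the same arrays at 24 h.

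How far these patterns rest on single arrays was read from parts of the data. The genes counted here were picked for passing the test in all 24 arrays. Their direction in parts of the same arrays is therefore largely fixed by that choice. All 20 genes that fell at 72 h had a change below 0 in replicates 1 and 2 alone (16 past the threshold), in replicates 3 and 4 alone (8 past) and without the 6 arrays that deviate alike (16 past). All 12 genes that were higher at 12 and 36 h had the same direction in each of these, with 7 past in replicates 1 and 2, 0 in replicates 3 and 4 by limma (7 at an unadjusted p under 0.05) and 11 without the 6 arrays. Without the 6 arrays, SLC7A5 at 36 h was also above 24 h, by 0.85 ± 0.21 (limma adjusted p = 0.00869). PSAT1, TARS1 and YARS1 passed as higher in the same comparison, so this was not particular to SLC7A5. Counts and p-values without these arrays carry the limit that the arrays were picked as extreme in these data. The value of SLC7A5 on replicate 4 at 36 h, 11.43, was the lowest of that time by far.

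Other genes of the pathway, from lists outside the set, were lower at 72 h in more cases than higher. Of 21 tested further ATF4 targets (25 listed), 9 were lower and 3 higher at 72 h, with a median change of -0.34, where 17.4% of all tested genes were lower and 18.5% higher. The 3 higher genes, named after their values were seen, were PPP1R15A (0.42 ± 0.14), SLC6A9 (0.37 ± 0.14) and CEBPG (0.29 ± 0.11). The lower ones included VLDLR, a lipoprotein receptor (-1.24 ± 0.32), SLC7A3, an arginine carrier (-1.18 ± 0.14), and MTHFD1L, a mitochondrial folate enzyme (-0.88 ± 0.11). GDF15, a secreted stress factor, exceeded background on 0 of 4 arrays at 72 h, against 4 of 4 at 0 h, at least 2.11-fold lower (adjusted p = 0.000696). ATF5, a related transcription factor named after its values were seen, was 1.25 higher at 12 h than at 0 h (adjusted p = 0.000992). At the same time SLC6A9 was 0.51 ± 0.14 higher (0.0284) and GDF15 was lower (-1.28 ± 0.31, 0.013), above background on 1 of 4 arrays at 12 h.

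The counts of the upstream and parallel lists at 72 h stand beside the same 17.4% lower and 18.5% higher over all tested genes. Of 12 tested eIF2alpha kinases, phosphatase subunits and eIF2 factors, 1 was higher and 1 lower at 72 h, with a median of -0.09: the kinase EIF2AK1 at 0.27 ± 0.10 and EIF2B2, a subunit of the exchange factor of eIF2, at -0.62 ± 0.10. Of 17 other ER stress and chaperone genes, 1 was higher (DNAJB9, an ER co-chaperone, 0.89 ± 0.11) and 3 lower (SDF2L1 at -0.73 ± 0.11, CANX at -0.49 ± 0.12 and PDIA4 at -0.28 ± 0.10), with a median of -0.13. Of 5 other tested cytosolic synthetases and scaffold proteins, 3 were lower (FARSA, RARS1 and KARS1, by 0.39, 0.36 and 0.35) and 0 higher, with a median of -0.35. Of 14 mitochondrial tRNA synthetases, 2 were lower (MARS2 at -0.57 ± 0.12 and TARS2 at -0.36 ± 0.12) and 1 higher (CARS2 at 0.24 ± 0.09), with a median of -0.11; whether this differs from the cytosolic synthetases was not tested.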

How the data were processed

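Total RNA of H1 cells was hybridised to 24 Illumina HumanHT-12 v4 arrays, 4 at each of 6 times, grouped by the labels. The deposited table holds log2 signals, 37900 rows after the authors' processing; how the authors corrected and normalized them is not given in the sources used here, and the values run from 5.57 to 15.51. A second table with 48 columns, 24 of intensity and 24 of detection p-values, was not used because its column names match no sample's label. Rows were named through GEO's platform annotation: 26221 had 1 symbol, 7 several and 11672 were not listed. No depth is known for arrays, and their number limits the precision.

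The highest row stood for a gene. Genes above background on at least 4 arrays were tested on the log2 scale with limma 3.58.1 in R 4.3.3, with a mean for each time, 18 residual degrees of freedom and Benjamini-Hochberg adjustment over all 10215 genes within each comparison, at a threshold of 0.05, two-sided. Errors after a change are standard errors of that fit. There were 10 comparisons between times and 1 F test, and 2 comparisons were added after the data were seen. The procedure was run on simulated data with independent noise for each gene and array, which cannot show the effect of deviations that genes share on an array. The alternatives were median centring, renewed quantile normalization, other filters, the mean of a gene's rows, array weights, a replicate block, a trended robust prior, subsets of arrays and a 1.5-fold limit. The genes named are all 35 of the set and, from each other list, up to 4 past the threshold with the largest change at 72 h. The set and all lists were chosen with earlier results of these data known. Motifs were searched in RefSeq promoter windows, which were not listed for PSPH, YARS1, SLC7A11, VARS1, SHMT2 and LARS1.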

Additional observations from a re-analysis of the deposited data

Results flagged for a closer look

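In 8 of the 186 groups of 4 arrays tested over the 31 genes, 1 array lay far from the other 3, measured as the gap to the nearest of them over the whole range of the group. Chance flags about 1 in 20 groups, which is more than were found. Of the 8, 4 were on the 6 arrays that deviate alike. ASNS on replicate 4 at 48 h had 10.51, against 11.44 to 11.59 on the others (gap ratio 0.863). MTHFD2 on replicate 2 at 72 h had 10.06, against 10.56 to 10.64 (0.864), and its call at 72 h was lost without that array. SLC3A2 on replicate 2 at 24 h had 8.61, against 8.23 to 8.24 (0.96). EPRS1 on replicate 4 at 48 h had 11.72, against 11.95 to 11.99 (0.86).

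The other flags were on arrays that did not stand apart as a whole. CEBPB on replicate 4 at 24 h had 10.41, against 10.22 to 10.24 (0.892). MARS1 on replicate 1 at 0 h had 10.82, against 11.08 to 11.10 (0.926), and on replicate 3 at 12 h it had 11.43, against 11.26 to 11.28 (0.849). YARS1 on replicate 3 at 72 h had 11.18, against 11.08 to 11.09 (0.857). The cause was not tested for any of them.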

How the results depend on the processing

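Median centring, renewed quantile normalization, a filter of 20 arrays, the mean of a gene's rows and a trended robust prior kept each count of genes within 1.5 times. The 20 genes lower at 72 h gave 400 estimates over 20 settings, all below 0, of which 366 passed the threshold, and 8 genes (CEBPB, GARS1, MARS1, SHMT2, SLC7A5, TRIB3, VARS1 and YARS1) passed in every one. The genes were picked for passing in the main fit, and most settings use nearly the same arrays. The estimates are therefore not independent, and their direction is largely fixed by the choice. Leaving out 1 array at a time, the number of the 31 genes past the threshold was 17 to 20 at 72 h (20 with all arrays), 7 to 12 at 48 h (11), 2 to 4 at 36 h (3), 0 to 2 at 24 h (2) and 0 to 5 at 12 h (3), each against 0 h. It was 2 to 10 for 24 h against 12 h (8), 1 to 3 for 36 h against 24 h (2), 2 to 5 for 48 h against 36 h (4), 0 to 4 for 72 h against 48 h (5), 11 to 13 for 12 and 36 h against 24 and 48 h (12) and 20 to 23 for the F test (23). With replicates 1 and 2 alone the counts were 1 at 12 h, 1 at 24 h, 2 at 48 h, 2 for 24 h against 12 h, 0 for 36 h against 24 h (9 unadjusted, limma), 1 for 48 h against 36 h, 3 for 72 h against 48 h and 15 by the F test. With replicates 3 and 4 alone they were 0 at 12 h, 0 at 24 h, 1 at 36 h, 1 at 48 h, 8 at 72 h, 10 by the F test, 0 for 12 and 36 h against 24 and 48 h, and 0 for every step between successive times (limma; 1 to 8 unadjusted); halving the arrays leaves fewer degrees of freedom. Without the 6 arrays that deviate alike they were 5 at 12 h, 6 at 36 h, 7 at 48 h, 6 for 36 h against 24 h, 7 for 48 h against 36 h and 2 for 72 h against 48 h, and with these arrays as a block 5, 4 and 7 at 12 h, for 36 h against 24 h and for 48 h against 36 h. Array weights gave 7 at 12 h, 1 at 24 h, 6 for 36 h against 24 h and 10 for 48 h against 36 h; the cause was not tested. With no filter on dim genes, 1 passed at 24 h, 2 for 48 h against 36 h and 1 for 72 h against 48 h. A 1.5-fold limit left 1, 0, 1, 2 and 8 at 12, 24, 36, 48 and 72 h, 3 for 24 h against 12 h, 0 for 36 h against 24 h, 1 for 48 h against 36 h, 1 for 72 h against 48 h and 3 for 12 and 36 h against 24 and 48 h. Against the times on either side, 7 genes passed at 12 h and 6 at 36 h.

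Replicate numbers paired the arrays weakly at most, and the main fit leaves them out. Deviations of same-numbered arrays correlated between -0.349 and 0.584 (median 0.076), and those of differently numbered arrays between -0.464 and 0.532 (median -0.077). Of 24 arrays, 8 were closest to their own number. With replicate as a block, 6 genes passed at 12 h (3 in the main fit) and 7 for 48 h against 36 h (4 in the main fit). The other counts stayed within 1.5 times. Changes at 72 h that turned sign were those of genes that did not pass at that time: PSAT1 (-0.01 in replicates 1 and 2, and -0.09 to 0.24 with 1 array left out), SARS1 (-0.08, and -0.06 to 0.07), SLC38A2 (0.00 with array weights, 0.07 without the 6 arrays, and -0.17 to 0.08) and DDIT3 (-0.11 to 0.03). Levels near background, as for DDIT3, SESN2, CHAC1 and SLC7A11, limit what could be detected.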

Other observations

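Genes outside the set were also compared between 12 and 36 h and 24 and 48 h, and those named here were chosen after their values were seen. Of 21 tested further ATF4 targets, 4 were higher at 12 and 36 h and 0 lower by limma, where 10.2% of all tested genes were higher: ATF5, EIF4EBP1 (a translation repressor that mTORC1 controls), SLC38A1 (a glutamine carrier) and SLC6A9 (a glycine carrier). ATF5 averaged 9.79 ± 0.53 at 12 h and 9.05 ± 0.43 at 36 h, against 8.55 ± 0.39 at 0 h, 8.74 ± 0.21 at 24 h and 8.24 ± 0.10 at 48 h (SD, n = 4 each), and its difference between both pairs of times was 0.93 ± 0.15 (limma adjusted p = 0.000295). Of 14 tested mitochondrial tRNA synthetases, CARS2, FARS2 and LARS2 were higher and 0 were lower. Of 12 eIF2alpha kinases, phosphatase subunits and eIF2 factors, EIF2B1, EIF2B2 and EIF2B4 were higher and 0 lower. Of 17 other ER stress and chaperone genes, CRELD2, DNAJB11 and SSR1 were higher and DNAJB9 lower. Of 5 other cytosolic synthetases and scaffold proteins, FARSA was higher and 0 were lower. Over all tested genes, 10.2% were higher and 10.2% lower.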
